A study of Mus musculus with 4 samples.

Results

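The cells described here are the astrocytes found in the hypothalamus at postnatal day 7 (P7). They were selected on measured UMI counts, as the P7 cells with at least 3 UMIs of Agt and Aqp4 together, at least 1 of Slc6a11, no more than 1 of Foxj1, and none of Rax, Pdgfra or Mki67. A UMI is the tag of 1 captured RNA molecule. This rule held for 1145 of 8917 P7 cells, or 12.8% (95% exact Clopper-Pearson interval 12.2% to 13.6%), out of 43261 cells in the series. The mice were C57BL/6J animals of the genotype Rax-CreERT2::Ai14. A tamoxifen-dependent Cre is made there where Rax is active, and Ai14 makes the red protein tdTomato once Cre has acted. Tamoxifen was given once, before the earliest collection, and live tdTomato+ cells of the hypothalamus were sorted at E11, E14, P0 and P7, with 1 sample per age. All samples share this genotype, treatment and sort, so the astrocytes here are those of the Rax-labelled lineage and not all astrocytes of the hypothalamus, and no unlabelled cells were compared.

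Astrocytes clear glutamate, GABA and glycine from around synapses, take up potassium, move water at blood vessels and supply neurons with lipids and metabolites. They arise late in brain development from radial glia, the progenitors that make neurons first. In the hypothalamus they lie beside tanycytes, which line the floor of the third ventricle, and they are a known source of angiotensinogen in the brain.

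The labels give no replicate at any age, so no test was possible, and the values below describe these libraries. Levels are counts per 1000000 (CPM) of the UMIs summed over a group of cells. Their 95% intervals are exact Poisson intervals and cover counting error only, not the spread between animals. Folds were computed with 5 CPM added to each side. A gene was called higher or lower past a fold of 2 if it also had at least 20 CPM in the higher group, and "tested" below means that a gene reached that level.

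A P7 astrocyte held a median of 9303 UMIs (3194 to 44198) and 3655 genes. The same rule found 0 of 5114 cells at E11, which allows a share of up to 0.0587% (taking 3 cells as the limit of a count of 0), and 0 of 17150 at E14, which allows up to 0.0175%. At P0 it found 484 of 12080 cells, or 4.01% (3.66% to 4.37%). The P0 cells came in parts numbered 1 and 2 in the cell names, called runs here, with 126 of 2452 cells and 358 of 9628 cells. The shares in the P0 runs were 5.14% and 3.72%. Cells met the rule by different genes at the 2 ages, since 1028 of 1145 P7 cells but 163 of 484 P0 cells had 3 or more Agt UMIs, and 152 of the P0 cells had none. The shares are therefore of cells that met the rule, and not a measure of all astrocytes at either age. Median depth was 9303 UMIs in the P7 astrocytes against 5467.5 and 9684 in the P0 runs, and the part of depth in these shares was not tested.

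Most of the selection came from Agt and Aqp4. Of the P7 cells that met every other term, 1270 were left out for too little Agt and Aqp4, 272 for Pdgfra, 124 for Foxj1, 113 for Mki67, 75 for Rax and 19 for Slc6a11. Cells just inside the Agt and Aqp4 limit, 47 cells with exactly 3 UMIs, had 144 CPM of Slc7a10 and 1278 CPM of the neuron gene Tubb3. The 128 cells just outside, with 2 UMIs, had 22.0 CPM of Slc7a10 and 2522 CPM of Tubb3. All astrocytes together had 543 and 364 CPM. At the Slc6a11 limit, 20 cells with 1 UMI had 1486 CPM of Gfap, and 19 cells without Slc6a11 had 1288 CPM. Cells at the edges of the rule were thus unlike the bulk of the astrocytes, and few in number.

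The rule used Agt and Aqp4, and the identity of the cells was read from genes it did not use. Slc7a10, which carries D-serine and other small amino acids, was found in 1030 of the 1145 astrocytes, with 0 to 28 UMIs per cell and a median of 5. Slc1a2 and Slc1a3, the glutamate transporters GLT-1 and GLAST, were found in 1120 and 1133 cells. Aldoc, an enzyme of glycolysis in astrocytes, was found in 97.2%, and Gja1, which encodes the gap junction protein connexin 43, in 97.0%. All 12 astrocyte markers outside the rule were at least 2-fold higher in these cells than in the other 7772 P7 cells. Of all 8635 genes tested, 8.03% were higher and 13.0% lower, and because every gene of a cell is tied to how the cell was chosen, nothing is read from that contrast. The cells are called astrocytes for the share of them that held these markers, and no share in other cells is given for comparison. The median astrocyte held 91 UMIs of the 12 markers. The median was 24 in the tanycyte-rule cells and 4 in the neuron-rule cells of P7, both described below.

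**Figure D1:**
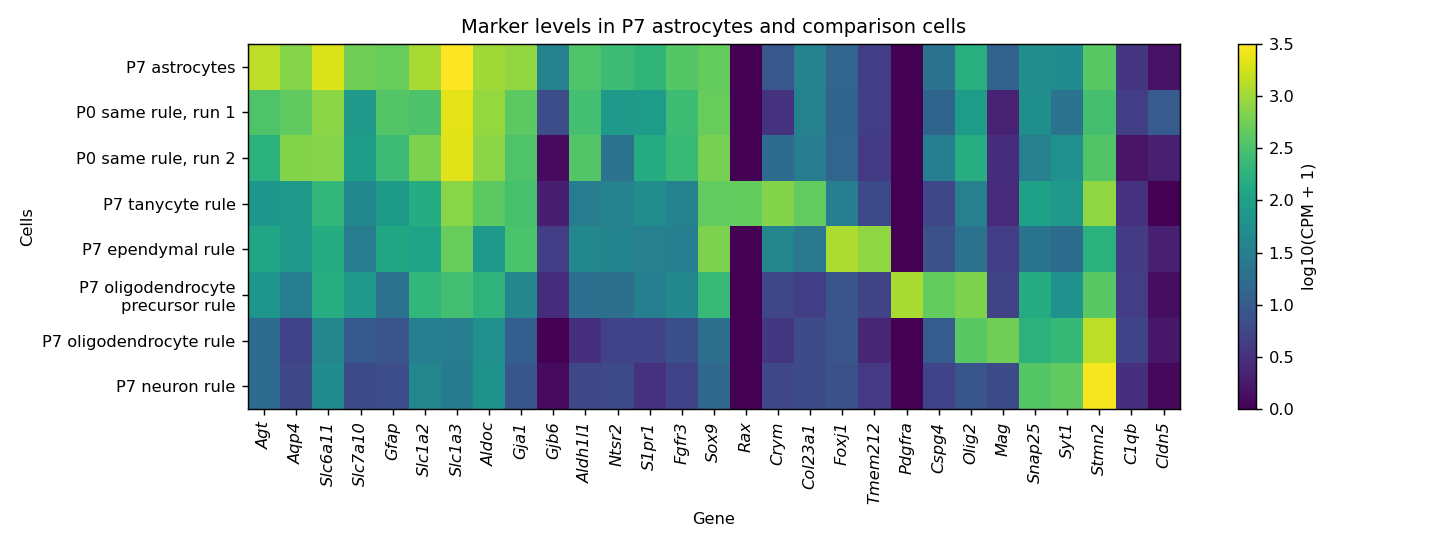
Level of each gene (columns) in P7 astrocytes and comparison cells (rows), as the log10 of summed CPM plus 1. Most astrocyte genes from Agt to Sox9 are bright in the first rows. Gjb6 is low in the P0 rows (5.71 CPM in run 1 and 0.265 CPM in run 2), as is Ntsr2 in P0 run 2 (19.4 CPM). The tanycyte, ependymal, oligodendrocyte and neuron genes to the right are bright in their own rows. Rax is 0 in every row except the tanycyte row, and Pdgfra is 0 in every row except the precursor row, because the rules require it.

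Markers of other cells were low but not absent. The 10 tanycyte markers summed to 148 CPM, against 2189 CPM in 250 P7 cells with at least 2 Rax UMIs, called tanycyte-rule cells. Rax is in that list and gave 468 CPM of the 2189 CPM, a difference that the rules fixed. The astrocyte rule also excluded Pdgfra, of the precursor list, and limited Foxj1, of the ependymal list. Ependymal markers summed to 243 CPM, oligodendrocyte precursor markers to 710 CPM, oligodendrocyte markers to 440 CPM and neuron markers to 1046 CPM. Microglia markers summed to 59.0 CPM with 7 of 8 genes under 5 CPM, and endothelial markers to 48.3 CPM with 5 of 6 under 5 CPM. UMIs of the precursor list were spread over the cells, with a median of 6 and a highest value of 123 per cell. That list holds Olig1 and Olig2, which are also in the list of glial transcription factors used below. In the Gfap-high astrocytes described below, they gave 403 and 135 of its 608 CPM. Sox10 had 9.29 CPM there, and C1ql1, the highest of the remaining genes, 22.9 CPM. Oligodendrocyte and neuron RNA was high in a few cells. A single astrocyte held 1680 UMIs of the 8 oligodendrocyte genes, while the median cell held 2. A limit of 20 UMIs of the neuron genes Snap25, Syt1, Tubb3 and Stmn2 was passed by 85 of 1145 astrocytes (7.42%), and the median cell held 2 such UMIs. These cells are named beside the results they touch.

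All cells had been sorted for tdTomato, and 99.1% of the P7 astrocytes held a tdTomato UMI, with a median of 10 and a highest value of 105. Since every cell was sorted on it, no background share can be given. Some 9 astrocyte barcodes also occurred in E14 run 2 and 2 in P0 run 2, and 0 in the other runs of E11, E14 and P0.

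Gene use differed from cell to cell in distinct ways. Agt, the precursor of the angiotensin peptides, was found in 97.2% of the astrocytes with 0 to 80 UMIs and a median of 13. Aqp4, the water channel of astrocyte endfeet, ran from 0 to 88 UMIs with a median of 5. Slc6a11, the GABA transporter GAT-3, ran from 1 to 94 with a median of 19. The rule required these genes, so their presence in most cells is no finding. The most loaded 10% of cells held 26.7%, 39.7% and 22.7% of their UMIs.

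Gfap, the intermediate filament protein often used to stain astrocytes, was patchy. It was found in 42.0% of the P7 astrocytes, at 0 to 185 UMIs with a median of 0, and the most loaded 10% of cells held 84.0% of its UMIs. Gjb6, which encodes connexin 30, was found in 24.3%, with at most 4 UMIs in a cell. More than 1 astrocyte in 2 by the other genes thus had no Gfap UMI at this depth, 664 of 1145 cells.

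The promoters of Agt and Gfap are shown because Agt helped to choose the cells and Gfap divides them below. They are from RefSeq on GRCm38.p6, both on the minus strand, written 5′ to 3′ in the direction of the gene, at chr8:124569707-124569956 for Agt (250 bases before the start) and chr11:102897194-102897450 for Gfap (257 bases, the last 7 of them after the start). Capitals mark matches to TTCNNNGAA, the palindromic form that STAT factors bind, searched on both strands.
Agt: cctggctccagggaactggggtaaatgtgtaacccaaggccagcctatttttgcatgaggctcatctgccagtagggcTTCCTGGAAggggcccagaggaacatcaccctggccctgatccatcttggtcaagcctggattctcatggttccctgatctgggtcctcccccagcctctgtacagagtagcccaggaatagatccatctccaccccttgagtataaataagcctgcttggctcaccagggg
Gfap: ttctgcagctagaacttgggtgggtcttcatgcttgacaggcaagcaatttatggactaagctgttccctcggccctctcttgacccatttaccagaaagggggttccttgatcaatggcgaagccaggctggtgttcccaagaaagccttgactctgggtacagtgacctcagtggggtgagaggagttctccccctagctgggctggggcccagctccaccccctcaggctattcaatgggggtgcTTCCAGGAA
The Agt match TTCCTGGAA begins 172 bases before the start, and the Gfap match TTCCAGGAA begins 2 bases before it. Both genes and all others were searched in windows of 300 bases, 250 before and 50 after the start, of which only the stretches above are printed. The form is present in 8.30% of 32851 such mouse windows. The TATA form TATAAA, found in 13.6% of windows, occurs once in the Agt window and not in that of Gfap. Of the 10 genes with the largest ratios in the Gfap-high cells described further on, 6 had a window and 1 of these held TTCNNNGAA. Gfap made that split and its own window holds a match, so nothing is read from this share. A match is a description of the letters and no evidence of binding.

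**Figure D2:**
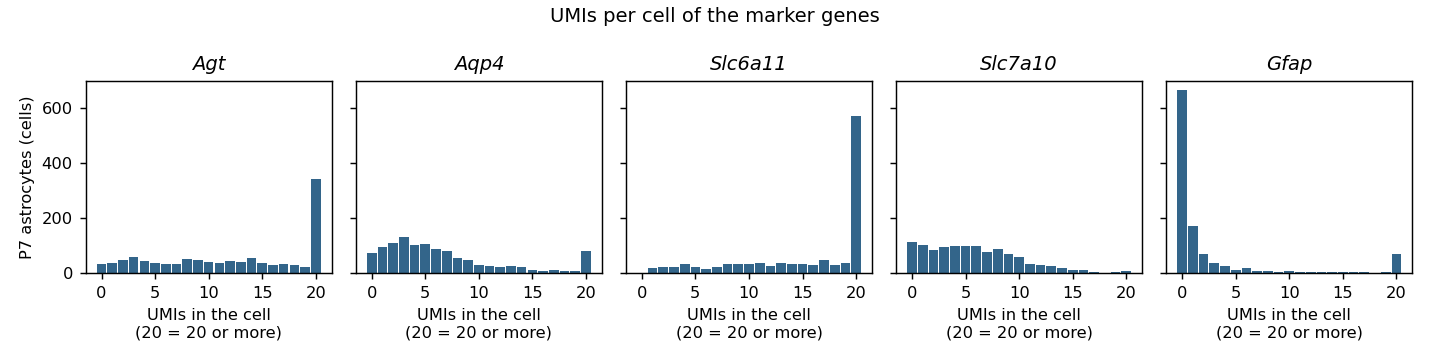
Number of P7 astrocytes (vertical axis, cells) by UMIs of each gene in the cell (horizontal axis, with 20 standing for 20 or more). Agt and Slc6a11 extend to 20 or more UMIs in many cells, Aqp4 and Slc7a10 peak at low counts, and 664 of 1145 cells have no Gfap UMI.

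After each cell was thinned to 2000 UMIs, the spread of UMIs between cells was measured by the Fano factor, the variance over the mean, which is 1 for random sampling alone. It was 2 or more for 84 of 3753 genes. The highest value was 56.2 for Avp, the hormone vasopressin, whose level ran from 0 to 3709 UMIs in a cell. A single cell thus held 3709 of the 5784 Avp UMIs of all astrocytes before thinning, while the median cell held 1. Next were the noncoding RNA Malat1 at 49.3 and the neuropeptide gene Npy at 16.8. Apoe, the main lipid carrier of the brain, had 10.1, the fatty acid binding protein gene Fabp7 8.75, Gfap 8.36, Ptprz1 6.36, Sparcl1 5.55 and the immediate early gene Fos 5.21. Among the 20 highest were also the noncoding RNA Meg3 at 15.2, the neuropeptide gene Ghrh at 12.5, Snhg11 at 6.69 and Cst3, which encodes the protease inhibitor cystatin C, at 5.97. Without the 85 cells with 20 or more neuron UMIs, 56 genes had a Fano factor of 2 or more.

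The comparison with P0 shows how the cells of the same rule differed a week earlier. Of 7802 genes tested, 260 were higher at P7 (3.33%) and 100 lower (1.28%), with a median log2 ratio of -0.01 over all genes. Age and library cannot be told apart in it. Against P0 run 1 alone, 656 genes were higher and 344 lower. With every cell thinned to 2000 UMIs, 326 were higher and 178 lower, among them 201 of the 260 and 83 of the 100. The sexes differed by run. The P7 astrocytes held 0 Xist UMIs and 2735 UMIs of Y-linked genes, the P0 cells of run 1 held 0 and 141, and those of run 2 held 2180 and 542. P0 values below are therefore given for run 1 and run 2 in that order, and folds with no run named are over the pooled P0 cells. Of the 260 higher genes, 167 passed the fold against both runs, and of the 100 lower genes, 29 did.

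The largest difference was in Gpr37l1, a G protein-coupled receptor of astrocytes and oligodendrocyte precursors. Its level was 439 CPM at P7 (427 to 451), against 11.4 CPM (5.48 to 21) in P0 run 1 and 11.7 CPM (8.49 to 15.7) in run 2. That is 26.7-fold, and both P0 runs lay far below P7. Among the other receptors, Ntsr2, a receptor for neurotensin, had 253 CPM at P7 against 75.4 and 19.4 CPM, and Adora2b, an adenosine receptor, had 89.2 CPM against 16.0 and 20.7 CPM. These were the only 3 of 19 tested receptor and signalling genes that were higher, and 0 were lower. Fgfr3 had 380 CPM against 257 and 236 CPM, and the Hedgehog receptor gene Ptch1 had 410 CPM against 422 and 639 CPM.

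In transmitter handling, 3 of 12 tested GABA and glycine genes, the rule gene Slc6a11 among them, and 3 of 14 glutamate genes were higher, and 0 were lower in either list. Slc7a10 had 543 CPM at P7 (530 to 556), against 74.2 CPM (57.3 to 94.6) in P0 run 1 and 88.6 CPM (79.4 to 98.7) in run 2, or 6.03-fold. Slc38a3, a glutamine transporter, had 210 CPM against 56.0 and 62.9 CPM. Slc7a11, the cystine and glutamate exchanger, had 297 CPM against 93.6 and 108 CPM. On the inhibitory side, the glycine transporter gene Slc6a9 had 283 CPM against 129 and 120 CPM, and the GABA-B receptor gene Gabbr1 had 716 CPM against 413 and 297 CPM, which is 1.72-fold over run 1. The rule gene Slc6a11 had 2006 CPM against 771 and 737 CPM. In contrast, the early glutamate transporter gene Slc1a3 was within 2-fold at 3166 CPM against 2301 and 2192 CPM. So was Glul, glutamine synthetase, at 495 CPM against 612 and 362 CPM.

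Water, potassium and gap junction genes had the largest median log2 ratio of the 16 function lists, 0.95, with 6 of 13 tested genes higher and 0 lower. Gjb6 had 34.3 CPM at P7 (31.1 to 37.7), against 5.71 CPM in P0 run 1 and 0.265 CPM in run 2, where it rested on 5 and 1 UMIs. Gja1 had 846 CPM against 412 and 342 CPM. The potassium channel gene Kcnj16 had 76.7 CPM against 32.0 and 18.8 CPM, and Mlc1, a membrane protein of endfeet, had 787 CPM against 305 and 272 CPM. The sodium pump gene Atp1b2 had 982 CPM against 403 and 478 CPM. Kcnj10, the potassium channel Kir4.1, was close to its P0 level, at 130 CPM against 132 and 107 CPM. Aqp4, a rule gene, had 731 CPM against 444 and 707 CPM.

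Among metabolic and lipid genes 3 of 15 were higher and 0 lower. Clu, the secreted chaperone clusterin, had 1809 CPM at P7 against 361 and 344 CPM, or 5.15-fold. Apoe had 19821 CPM against 8540 and 9658 CPM, and Acsbg1, which activates fatty acids, had 345 CPM against 129 and 176 CPM. Acsbg1 passed the fold against run 1 and the pooled cells but not against run 2. Fabp7, which binds fatty acids in radial glia and young astrocytes, was below its P0 level at 10782 CPM against 12476 and 21704 CPM, which is 0.864-fold and 0.497-fold, and it passed the fold only against run 2. All 13 tested genes of cholesterol synthesis stayed within 2-fold of the pooled P0 cells, while Insig1, with 111 CPM against 333 and 87.6 CPM, was at 0.341-fold of run 1. Metallothionein Mt2 was the 1 of 3 metallothioneins that was lower, with 368 CPM against 2752 CPM in P0 run 1 but 459 CPM in run 2, so that this call rests on run 1.

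Secreted and synaptic proteins differed in both directions, with 6 of 18 tested genes higher and 2 lower. Higher were the glypican gene Gpc5 (64.2 CPM against 3.43 and 8.23 CPM), the protease gene Htra1 (361 CPM against 63.9 and 66.4 CPM), and the cytokine gene Il33 (51.7 CPM against 17.1 and 10.9 CPM). The matrix genes Sparc, Sparcl1 and Bcan were also higher, with 1700 CPM against 808 and 645 CPM, 6377 CPM against 1875 and 3018 CPM, and 2065 CPM against 928 and 720 CPM. Lower were tenascin C, Tnc, with 129 CPM against 353 and 334 CPM, and versican, Vcan, with 84.1 CPM against 107 and 194 CPM. Vcan passed the fold only against run 2. Matrix genes thus lay on both sides, and neurocan, Ncan, was within 2-fold at 1002 CPM against 1610 and 1700 CPM.

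Genes of the immature state were lower where they passed the fold. Of 15 tested radial glia and immature genes, 4 were lower and 0 higher, with a median log2 ratio of -0.65. Tnc is in this list too. Nes, the intermediate filament of neural progenitors, had 21 CPM at P7 against 30.8 CPM in P0 run 1 and 91.0 CPM in run 2, so most of this difference came from run 2. Sox11 and Dcx, genes of young neurons and progenitors, were lower over the pooled P0 cells at 0.490-fold and 0.465-fold. They were at 0.994-fold and 0.674-fold against run 1, and at 0.438-fold and 0.433-fold against run 2. Hes1 and Id1, transcription regulators downstream of Notch and BMP signals, were the 2 lower of 19 glial transcription factors. Hes1 had 71.1 CPM against 240 and 184 CPM, and Id1 had 138 CPM against 404 and 475 CPM. The factors that define the glial fate stayed within 2-fold, with Sox9 at 472 CPM against 478 and 612 CPM and Nfia at 482 CPM against 757 and 590 CPM.

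**Figure D3:**
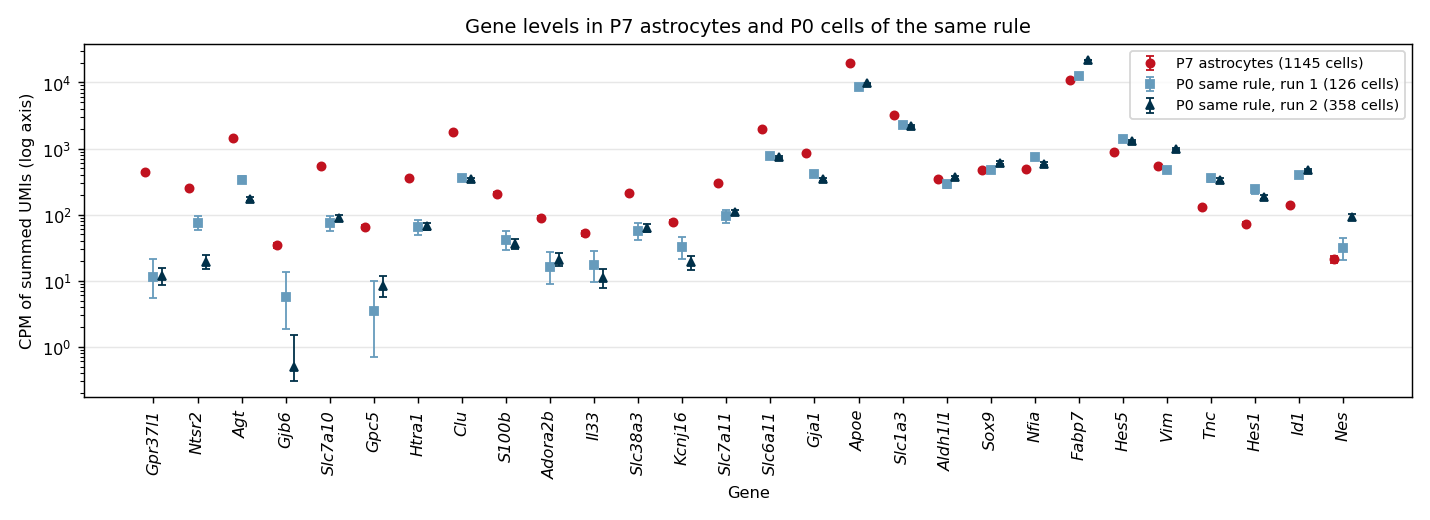
Level of each gene (CPM of summed UMIs, log axis) in P7 astrocytes (circles) and in P0 cells of the same rule in run 1 (squares) and run 2 (triangles), with 95% exact Poisson intervals, values under 0.5 CPM being drawn at 0.5. From Gpr37l1 to Apoe the P7 circle lies above both P0 runs, from Slc1a3 to Vim it lies within 2-fold of at least 1 of them, and from Tnc to Nes it lies below both.

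Ranked over all genes, the 10 largest ratios at P7 also held Cxcl14, a chemokine gene (146 CPM against 29.7 and 9.55 CPM), Hsd11b1, whose enzyme regenerates active glucocorticoid (53.2 CPM against 6.85 and 1.59 CPM), and the claudin gene Cldn10 (423 CPM against 127 and 46.2 CPM). Agt, which the rule used, had 1420 CPM against 339 and 173 CPM. The neuropeptide genes Agrp, Ghrh and Npy were also there, with 96.7 CPM against 3.43 and 2.92 CPM, 95.9 CPM against 3.43 and 3.18 CPM, and 285 CPM against 9.14 and 29.99 CPM. After cells with 20 or more neuron UMIs were left out of both ages, Agrp had 10.2 CPM at P7, Ghrh 22.1 CPM and Npy 52.9 CPM, so most of the neuropeptide RNA lay in the 85 cells that also held neuron RNA. Among the lowest ratios, Fgfbp3, which encodes a binding protein for fibroblast growth factors, had 192 CPM at P7 against 1197 and 612 CPM, and Tspan18 had 9.08 CPM against 52.5 and 51.5 CPM. Hist1h1e and the haemoglobin gene Hbb-bs, also among the 10 lowest, turned direction against run 1 and against run 2, respectively. The 5 erythroid markers summed to 391 CPM in P0 run 1, 10.6 CPM in run 2 and 10.1 CPM at P7.

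Immediate early genes did not give a stable contrast between the ages. Fos had 1182 CPM at P7, between 509 CPM in P0 run 1 and 2007 CPM in run 2. Fosb and Egr1, the 2 of 12 that were lower over the pooled P0 cells, were 6.17-fold and 3.58-fold higher at P7 against run 1. Their levels in P0 runs 1 and 2 were 6.85 and 198 CPM for Fosb, and 93.6 and 846 CPM for Egr1.

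The astrocytes were also set beside the tanycyte-rule cells of the same library, which still hold Rax RNA. Of 8303 genes tested, 8.03% were higher in astrocytes (667) and 7.39% lower (614). The rules chose the cells by Rax, Agt, Aqp4 and Slc6a11, so these values are a description. Neuron-marker RNA was higher in the tanycyte-rule cells (2091 CPM against 1046 CPM). So was ependymal-marker RNA (982 CPM against 243 CPM), while oligodendrocyte precursor-marker RNA was lower there (139 CPM against 710 CPM). Without the cells of 20 or more neuron UMIs in both groups, 755 genes were higher, 621 of them among the 667, and 833 were lower, 554 of them among the 614.

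Transmitter and ion genes were on the astrocyte side. Of the tested genes, 7 of 12 GABA and glycine genes and 11 of 14 glutamate genes were higher in astrocytes, with 0 and 1 lower, and 8 of 13 water, potassium and gap junction genes were higher with 0 lower. The first and the last of these counts include the rule genes Slc6a11 and Aqp4, which were bound to be high. Slc7a10 had 543 CPM in astrocytes and 41.7 CPM in tanycyte-rule cells. Grm3, a metabotropic glutamate receptor, had 153 CPM and 7.43 CPM, and Slc6a9 had 283 CPM and 21 CPM. Slc38a1, a glutamine transporter of neurons and other cells, was the exception with 58.2 CPM and 272 CPM. Pla2g7, which encodes a secreted phospholipase, had the largest ratio of all genes at 21.4-fold (1056 CPM and 44.6 CPM). Aldh1l1, a folate enzyme used as a marker of all astrocytes, had 344 CPM and 29.4 CPM. Sox9 was alike in both, at 472 CPM and 460 CPM.

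Receptor and lipid genes leaned the same way. Of 19 receptor and signalling genes 12 were higher in astrocytes and 0 lower, among them Fgfr3 (380 CPM and 36.2 CPM), Ednrb (1462 CPM and 142 CPM) and Egfr (105 CPM and 9.70 CPM). Of 19 secreted and synaptic genes 14 were higher and 0 lower, with Sparcl1 at 6377 CPM and 534 CPM. Of 13 genes of cholesterol synthesis 10 were higher and 0 lower, by folds from 2.05 for Fdft1 to 3.15 for Msmo1. Lactate dehydrogenase A, Ldha, was lower, with 316 CPM against 876 CPM.

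Both deiodinase genes were lower in the astrocytes. Dio2, which makes active thyroid hormone, had 2.29 CPM in astrocytes (1.52 to 3.31) and 38.8 CPM in tanycyte-rule cells (32.2 to 46.4). Dio3, which inactivates it, had 3.03 CPM and 56.9 CPM. In the list of renin, angiotensin and thyroid hormone genes, 3 of 7 tested genes were lower in astrocytes and 1, Agt, was higher. Several other parts of the angiotensin system were near 0 in the astrocytes. Lnpep of the same list was not, with 26.9 CPM in the Gfap-high astrocytes and 23.4 CPM in those without Slc7a10, both described below. In tanycyte-rule cells Lnpep had 34.9 CPM. Renin, Ren1, and the receptor gene Agtr2 had 0 UMIs, Ace had 1.15 CPM and Agtr1a 0.573 CPM. The leptin receptor Lepr and the incretin receptor Glp1r had no UMI in any of the 1145 cells, while Nr3c1, the glucocorticoid receptor, had 101 CPM (87.9 CPM in tanycyte-rule cells) and Ghr, the growth hormone receptor, 49.3 CPM (36.5 CPM). A 3-prime assay at this depth does not show that a gene with 0 UMIs is off.

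UMIs of transcription factors of several brain regions were found in the astrocytes, at low levels. Shares of cells with a UMI were taken after thinning every cell to 2000 UMIs, and 14 of 25 regional factors were found in at least 2% of the cells. The count was 12 without the cells of 20 or more neuron UMIs and 12 without the 24 cells called doublets. It was 10 under a stricter rule for the astrocytes and 16 at 4000 UMIs. Without the cells of 20 or more neuron UMIs, Six6 went from 2.88% to 0.943% and Otp from 2.10% to 0.943%. Six3, a factor of the anterior forebrain and hypothalamus, was found in 26.0% (23.5% to 28.7%), Nkx2-2 in 10.1%, Nkx2-4 in 9.87% and Nkx2-1 in 9.52%, the last of these a factor that specifies the ventral hypothalamus. Unthinned, Six3 was found in 63.6% and Nkx2-1 in 30.9%. Pax6 was found in 7.25% and Foxd1 in 6.46%. Barhl1 and Sp8 had no UMI in any cell.

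The shares in neurons of the same library stand beside them. In the neuron-rule cells (993 P7 cells with at least 10 UMIs of Snap25 and Syt1, median 23962 UMIs before thinning), Pax6 was found in 0.101%, Foxd1 in 0.201% and Nkx2-2 in 0.705%, all below the astrocytes. Six3 was found there in 24.2% and Nkx2-4 in 8.46%, near the astrocyte values, and Nkx2-1 in 18.3%. For these 3 genes neurons are no background, and a share from free RNA was not tested. Tanycyte-rule cells had more Nkx2-4 (61.6%), Lhx2 (38.8% against 3.23%), Nkx2-1 (23.6%) and Tbx3 (13.2% against 0.786%), and less Pax6 (0.800%) and Nkx2-2 (2.40%). By level, 4 of 13 tested regional factors were higher in astrocytes than in tanycyte-rule cells and 8 were lower.

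A pair of homeobox genes stood out beside the list. Nkx6-2, a factor of ventral progenitors and glia, ranked 3rd by ratio against tanycyte-rule cells, with 76.1 CPM (71.3 to 81.2) and 1.29 CPM (0.352 to 3.31). It was found in 12.9% of astrocytes at 2000 UMIs. P0 cells of the rule had 52.5 CPM in run 1 and 41.7 CPM in run 2, so Nkx6-2 was within 2-fold of both. Dbx2, a progenitor factor that was singled out after its values were seen, was found in 29.4% of astrocytes, 20.04% of P0 cells of the rule, 5.51% of oligodendrocyte precursor-rule cells and 2% of tanycyte-rule cells. Its level was 166 CPM in astrocytes and 10.99 CPM in tanycyte-rule cells.

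**Figure D4:**
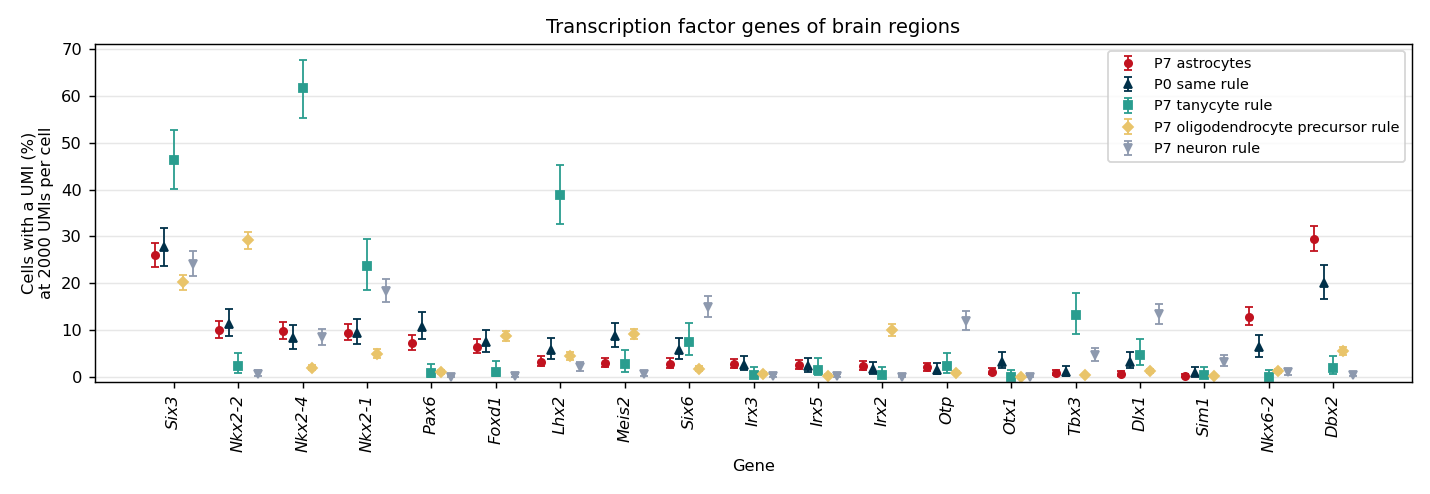
Share of cells with at least 1 UMI of each transcription factor gene (percent, each cell thinned to 2000 UMIs) with 95% exact Clopper-Pearson intervals, in P7 astrocytes, P0 cells of the same rule and 3 other P7 classes. Nkx2-4 and Lhx2 are highest in tanycyte-rule cells at 61.6% and 38.8%, and Dbx2 and Nkx6-2 are highest in the P7 astrocytes at 29.4% and 12.9%.

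The astrocytes were next compared among themselves. Gfap marks fibrous and boundary astrocytes and is raised when astrocytes react to injury, while Slc7a10 marks mature protoplasmic cells. Splitting by Gfap gave 237 cells with 3 or more UMIs and 664 with none, at median depths of 11993 and 8640.5 UMIs. Of 7801 genes tested, 1.90% (148) were higher in the Gfap-high cells and 1.70% (133) lower. The count of lower genes depended on the settings. It was 54 from the mean of the cells' own CPM, of which 44 were among the 133. A stricter rule for the astrocytes gave 67 (49 of the 133). Adding 1 CPM gave 203 (all 133), and thinning to 2000 UMIs alone gave 248 (50 of the 133). Splitting after thinning compared cells with any Gfap UMI left with cells with none, so the threshold differed as well as the depth. That split gave 39 lower (37 of the 133) and 97 higher (97 of the 148). The split is drawn from the same cells, so Gfap itself is no result.

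Gfap-high astrocytes had more RNA of inhibitors of differentiation, most of the reactive genes tested and immediate early genes. All 4 Id genes were higher, with Id1 at 317 CPM (297 to 337) against 71.2 CPM (64.9 to 77.9) and Id3 at 1379 CPM against 410 CPM. Hopx was higher too (153 CPM against 43.6 CPM), and in all 6 of 19 tested glial factors were higher and 0 lower. Of 10 tested reactive and fibrous genes, 7 were higher, Gfap among them, including Vim (958 CPM against 396 CPM), the complement gene C4b (47.1 CPM against 7.54 CPM) and Serpina3n (126 CPM against 40.7 CPM). Other genes of that list were under 20 CPM in the Gfap-high cells. Lcn2 and C3 had 0.332 CPM each, Timp1 0.996 CPM, Cxcl10 18.6 CPM and Aqp1 0 CPM. Aqp4, which the rule used, had 1251 CPM against 512 CPM. Ntsr2 was higher with 407 CPM against 187 CPM, though Ntsr2 was at 1.90-fold without the cells of 20 or more neuron UMIs. Markers of other cells differed as well. The 7 mural and fibroblast markers summed to 72.0 CPM against 26.1 CPM, with 5 of 7 under 5 CPM in both groups, the 10 tanycyte markers to 225 CPM against 122 CPM, and the 10 ependymal markers to 317 CPM against 213 CPM. Their part in the result was not tested. The largest ratios after Gfap were 11.15-fold for Cidea, a lipid droplet protein gene, 10.1-fold for the transcription factor gene Cebpd, 8.33-fold for the phospholipase gene Pla2g3 and 7.84-fold for Klf2.

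Of the immediate early and stress genes tested, 12 of 12 were higher with Gfap. Fos had 2392 CPM (2338 to 2448) in Gfap-high cells and 716 CPM (696 to 737) in cells without Gfap, and Jun had 677 CPM and 162 CPM. These genes can be induced by dissociation of tissue. Among the 587 astrocytes with 4 or fewer Fos UMIs, a split chosen after seeing the data, 46 cells were Gfap-high and 411 had none. There 81 genes were higher, 41 of them among the 148, and 279 were lower, 94 of them among the 133. Pla2g3 was 4.66-fold higher, Ntsr2 2.49-fold, Serpina3n 2.39-fold, Id3 2.36-fold and Id1 2.33-fold. Cebpd was 1.05-fold, Klf2 0.972-fold and Cidea 1.44-fold, so those 3 no longer passed the fold. The 12 immediate early genes did not pass it there either. Direction turned in 4 of them, with log2 ratios of -0.37 for Fosb, -0.27 for Egr1, -0.54 for Dusp1 and -0.42 for Nr4a1. The limit holds Fos low in both groups by choice. Nothing is therefore read from the loss in these 12 genes or in Cebpd, Klf2 and Cidea.

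Lower in the Gfap-high cells was above all Igfbp2, a secreted binding protein for insulin-like growth factors, with 164 CPM (149 to 179) against 809 CPM (787 to 831). Slc7a10 had 293 CPM against 634 CPM, and the glutamate receptor genes Grm5 and Gria2 had 147 CPM against 308 CPM and 318 CPM against 670 CPM. Of 15 metabolic genes 1 was higher and 0 lower, which is near the share over all genes. Slc1a3, Aldoc, Apoe and Sox9 stayed within 2-fold. Neuron markers were lower in 7 of 10, with summed levels of 561 CPM against 1341 CPM. Without the cells with 20 or more neuron UMIs, 66 genes were lower in place of 133, with 40 shared, and Igfbp2 was still at 0.185-fold. The 8 oligodendrocyte markers summed to 421 CPM in the Gfap-high cells and 507 CPM in cells without Gfap, with medians of 5 and 2 UMIs per cell, and the cell with 1680 such UMIs was among the latter. Among the 587 low-Fos astrocytes Igfbp2 was at 0.461-fold, while Slc7a10 was at 0.814-fold and within 2-fold.

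Splitting by Slc7a10 gave 927 cells with 2 or more UMIs and 115 with none, at median depths of 9153 and 12890 UMIs, so the cells without it were not the shallower ones. Of 7988 genes tested, 4.03% (322) were higher with Slc7a10 and 5.65% (451) lower. These counts depended on the settings. Thinning each cell to 2000 UMIs gave 690 and 686, with 223 of the 322 and 336 of the 451 among them. Splitting by any Slc7a10 UMI left after thinning against none, a looser threshold, gave 40 higher, 38 of them among the 322. A stricter rule for the astrocytes gave 182 lower, 139 of them among the 451. Neuron RNA moved with this split, as 21.7% of the cells without Slc7a10 and 4.31% of the others held 20 or more neuron UMIs. Without those cells the counts were 283 and 198, with 208 of the 322 and 136 of the 451 among them.

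Igfbp2, Cldn10 and Gjb6 were among the genes with the largest ratios where Slc7a10 was present. Igfbp2 had 751 CPM (733 to 768) against 90.2 CPM (75.8 to 107), Cldn10 had 520 CPM against 74.6 CPM, and Gjb6 had 42.7 CPM against 5.19 CPM. Of the tested genes, 6 of 13 GABA and glycine genes and 8 of 14 glutamate genes were higher, with 0 and 1 lower. Slc7a10, which made the split, is 1 of the 8. The GABA-B receptor gene Gabbr2 had 390 CPM against 92.2 CPM, Slc6a9 340 CPM against 76.6 CPM, Slc1a3 3649 CPM against 1389 CPM, and Slc1a2 1262 CPM against 486 CPM. Without the cells of 20 or more neuron UMIs, Igfbp2 was 6.40-fold higher, Cldn10 5.82-fold, Gabbr2 3.61-fold, Slc1a2 2.10-fold and Slc1a3 2.01-fold. Phgdh, the first enzyme of serine synthesis, was alike at 617 CPM against 557 CPM, as was Aldh1l1 at 362 CPM against 294 CPM.

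Some of the genes lower with Slc7a10 were high with Gfap. Gfap had 264 CPM (254 to 275) in cells with Slc7a10 and 1502 CPM (1442 to 1565) in cells without. Cebpd had 37.9 CPM against 311 CPM, Pla2g3 had 95.3 CPM against 508 CPM, and all 12 immediate early genes tested were lower. Cells without Slc7a10 made up 6.17% of the astrocytes with no Gfap, 7.79% of those with 1 or 2 Gfap UMIs and 23.2% of those with 3 or more. Most Gfap-high cells, 143 of 237, still had 2 or more Slc7a10 UMIs, so the genes were not exclusive. Of the 148 genes higher with Gfap, 80 were lower with Slc7a10, which is 54.1% of the first list and 17.7% of the second. Over all 7988 genes tested in the Slc7a10 split, 5.65% were lower. The 587 low-Fos astrocytes, of which 526 had 2 or more Slc7a10 UMIs and 27 had none, cannot decide whether this opposition holds. The Fos limit left 46 of the 237 Gfap-high cells, and Fos was itself high with Gfap and lower with Slc7a10. In the low-Fos cells Gfap had 85.2 CPM with Slc7a10 and 94.0 CPM without. Id3 had 304 and 303 CPM, and Cebpd had 9.81 and 2.94 CPM. Nothing is read from these levels. Igfbp2, Cldn10, Slc1a2 and Slc1a3 were still higher with Slc7a10 there, by 10.1-fold, 9.97-fold, 6.14-fold and 7.82-fold. With only 27 cells on one side, 1412 genes were higher and 1495 lower there, so these folds are not particular to the named genes. Both splits use the same cells, 55 of which are Gfap-high and without Slc7a10, so this overlap is given as a count only.

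**Figure D5:**
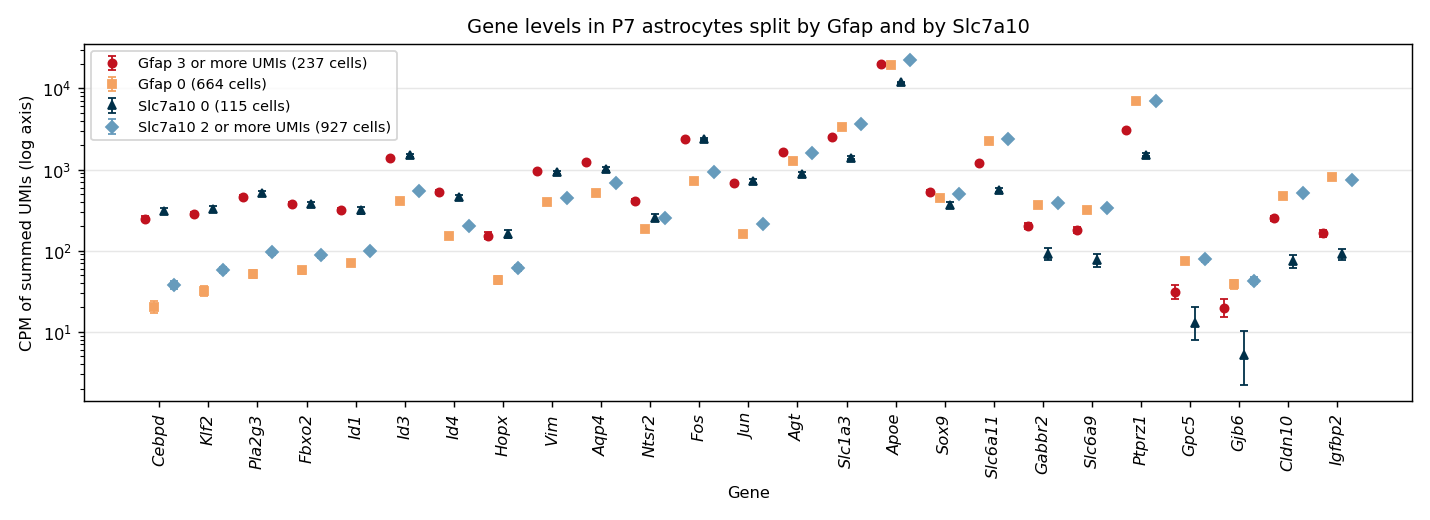
Level of each gene (CPM of summed UMIs, log axis, 95% exact Poisson intervals) in P7 astrocytes split by Gfap (circles and squares) and by Slc7a10 (triangles and diamonds). From Cebpd to Jun the Gfap-high cells (circles) and the cells without Slc7a10 (triangles) lie above their partners, Ntsr2 being alike in the Slc7a10 split at 256 and 254 CPM. From Slc6a11 to Igfbp2 they lie below, and Agt, Apoe and Sox9 stay within 2-fold in both splits.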

How the data were processed

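The authors deposited 1 table of UMI counts for 28879 genes in 43261 cells, made with 10x 3-prime v3 libraries per the labels' protocols. Every deposited value was a whole number of at least 0. The submitters' processing notes name Cell Ranger 3.0.2, Seurat and mm10, and the aligner settings and the authors' filters on cells are not given in the sources used here. Cells were assigned to ages by their names, and no annotation of cell types was used. The labels differ on the day of tamoxifen and give ages such as P7.5 for the sample titled P7.

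UMIs were summed per group of cells and scaled to CPM with Python 3.11.15, numpy 2.4.6, scipy 1.17.1 and pandas 2.3.3. The fold calls and the Fano factor were tested on simulated Poisson counts. These hold no further spread between cells, so calls that rest on a few cells were not tested. Total depth of the astrocytes was 12218993 UMIs. Ratios had 5 CPM added to each side. Poisson and Clopper-Pearson intervals are exact, at 95%. No further filter on cells was set. Scrublet in scanpy 1.11.5 called 24 astrocytes doublets, which were kept and left out in an alternative. Beyond the gene lists, genes were named only from the 10 largest and 10 smallest ratios of each comparison and the 20 highest Fano factors, with any exception said in the text, passing over Gm-numbered, Rik, ribosomal, mitochondrial and sex-linked genes. Members and lists were chosen with earlier results of these data known. Alternatives changed the pseudocount, minimum level, scaling, depth, member rule, doublets and P0 run. Those on neuron RNA, Fos and P0 run 1 were added after seeing the data. Some genes of the lists are counted in them but not reported here by name.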

Additional observations from a re-analysis of the deposited data

How the results depend on the processing

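Of the recomputed summary counts, 88 stayed within 1.5 times the reported value and 22 did not. Of the recomputed gene ratios, 3208 stayed within their counting interval, 1590 moved beyond it and 43 turned direction. The cause was not tested. Thinning cells to 2000 UMIs gave 975 genes lower than in tanycyte-rule cells, 178 lower than at P0, 248 lower with Gfap, and 690 higher and 686 lower with Slc7a10. A minimum of 5 CPM gave 153 lower than at P0, and P0 run 1 alone gave 656 higher and 344 lower. Genes lower with Gfap numbered 203 with 1 CPM added, 54 from the mean of the cells' CPM and 67 under the stricter rule (at least 6 UMIs of Agt and Aqp4 and 2 of Slc6a11), which gave 182 lower with Slc7a10. Splitting after thinning, by any UMI left against none, gave 97 higher and 39 lower with Gfap, and 40 higher with Slc7a10. Low-Fos cells gave 81 higher and 279 lower with Gfap, and 1412 and 1495 with Slc7a10, from 27 cells without it. Without cells of 20 or more neuron UMIs, 66 were lower with Gfap and 198 lower with Slc7a10. At 4000 UMIs, 174 genes had a Fano factor of 2 or more. 

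The following log2 ratios turned direction. Under the stricter rule they were -0.30 for Mbp against tanycyte-rule cells, -0.50 for Mbp against P0, and -0.18 for Mbp and -0.27 for Cldn11 in the Slc7a10 split. Against P0 run 2 it was 0.18 for Hbb-bs, and against P0 run 1 they were 2.63 for Fosb, 1.84 for Egr1 and 0.51 for Hist1h1e. After thinning they were 0.18 for Gad2 in the Gfap split and 0.15 for Cd59a in the Slc7a10 split, and splitting by Slc7a10 after thinning gave -3.32 for Mbp and -3.07 for Cldn11. Without cells of 20 or more neuron UMIs, the Gfap split gave 0.41 for Slc32a1, 0.70 for Gad2 and 0.012 for Gal, and the Slc7a10 split gave 0.33 for Dlx1, 0.36 for Dlx2, 0.26 for Tubb3 and 0.14 for Stmn2. In low-Fos cells the Gfap split gave -0.97 for Slc38a1, 0.083 for Gpc5, 0.0728 for Il33, -0.37 for Fosb, -0.27 for Egr1, -0.54 for Dusp1, -0.42 for Nr4a1, -0.57 for Cd59a, -0.61 for Cfap126, -0.0403 for Klf2 and 0.34 for Gal. The Slc7a10 split there gave 0.00651 for Id3, 0.82 for Cryab, 0.64 for Fos, 0.32 for Junb, 0.45 for Egr1, 0.81 for Atf3, 0.00191 for Btg2, 0.024 for Zfp36, 0.36 for Cd59a, 1.26 for Col1a2, 0.12 for Ccl7, 0.90 for Cebpd and 0.17 for Nppc.

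With 1 sample per age, intervals cover counting error only, and there was no replicate to leave out. No paired analysis was possible because each age is 1 sample. A count of 0 UMIs over 1145 cells limits cells with a UMI and does not show that a gene is off.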
